A study of Mus musculus with 2 samples.

Results

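The cytosolic ribosomal protein genes of newborn mouse midbrain were examined in 2 RNA-seq libraries, one from pup 1 and one from pup 3. A gene was a member when its mouse symbol was Rpsa or was written Rpl, Rps or Rplp with a number and at most 1 of the endings a, x, y or l, itself with or without a number. This rule uses names only and took 88 of the 43346 mouse genes in the tables. Of the members, 77 encode core proteins of the ribosome, 46 of the large and 31 of the small subunit, and the other 11 are paralogues or copies. Both libraries came from the midbrain of B6NCrl mice on postnatal day 0, were made from 13 pg of total RNA (1 cell-equivalent) by a SMART-type amplification with added spike-in RNAs, and form a single group with no treatment and no mutant allele. The material was RNA of a tissue although the assay is labelled single cell, the sex was not collected, and 1 donor record stands for both pups, so the differences given below are between 2 libraries. An exact two-sided test on 2 samples cannot go below 0.5, and none was run.

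The libraries held 26037002 expected counts on mouse genes in pup 1 and 32408655 in pup 3. Neuronal markers were abundant in both pups, with Stmn2 at 2056 and 2565 TPM, a level scaled for transcript length and library size, in pup 1 and pup 3. Gap43 (2215 and 2400 TPM) and Snap25 (366 and 552 TPM) were also higher in pup 3. Tubb3 went the other way, at 5927 TPM in pup 1 and 1794 TPM in pup 3. Th, the enzyme that commits tyrosine to dopamine, stood at 46.9 and 38.5 TPM. The other dopamine markers went both ways, with Ddc at 6.88 and 38.6 TPM in pup 1 and pup 3, and Pitx3 at 8.14 TPM and Slc6a3 at 2.38 TPM in pup 1 and both at 0 in pup 3. The 4 globin genes summed to 1703 and 2860 TPM, and the part of blood RNA in the levels below was not tested.

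A ribosome is built of ribosomal RNA and about equal numbers of its proteins, each of which in mammals is usually made from a single working gene. The stalk proteins Rplp1 and Rplp2 are an exception, as they stand in more than 1 copy. Mammalian genomes also carry many processed copies of these genes, made by reverse transcription of the mRNA, and most are annotated as pseudogenes. A few members have a true paralogue, some of them used in muscle, testis or lymphocytes. The mRNAs share a start of pyrimidines, the 5′ terminal oligopyrimidine tract, through which the mTOR pathway and the RNA-binding protein Larp1 control their translation.

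The sequences below show why a read can match more than 1 of these genes. They are from GENCODE M21 on GRCm38 (mm10), 5′ to 3′ on the sense strand, and each begins at the coding start. Rps23 (chr13:90922958-90924950, plus strand) and its processed pseudogene Rps23-ps1 (chr3:37714740-37715164, plus strand) shared 425 aligned bases without a mismatch. Rpl27a (chr7:109519147-109522367, plus strand) and the processed pseudogene Gm7536 (chr3:24333068-24333511, plus strand) shared all 444. Rps27 (chr3:90212522-90213651, minus strand) and Rps27rt (chr9:114982366-114982739, minus strand), annotated as protein coding, shared all 252 coding bases. The first 100 bases of each pair are the same letters and are printed once, in lower case because none differ.
Rps23 and Rps23-ps1: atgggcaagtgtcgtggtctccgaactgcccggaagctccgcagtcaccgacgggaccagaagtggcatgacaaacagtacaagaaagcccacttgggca
Rpl27a and Gm7536: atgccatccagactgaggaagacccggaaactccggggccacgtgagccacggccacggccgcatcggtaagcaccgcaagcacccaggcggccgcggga
Rps27 and Rps27rt: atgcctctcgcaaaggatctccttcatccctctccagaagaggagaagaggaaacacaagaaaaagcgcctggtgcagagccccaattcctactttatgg

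Rps12 (chr10:23785183-23787275, minus strand) and the pseudogene Rps12l1 (chr7:56014016-56014414, plus strand), itself a member, differed by 1 gap and no mismatch over 411 aligned positions. Whether the gapped bases were lost from Rps12l1 or added in the annotated Rps12 transcript was not tested. The stretch from coding position 102 to 176 of Rps12 is shown with the 15 bases absent from Rps12l1 in capitals.
Rps12: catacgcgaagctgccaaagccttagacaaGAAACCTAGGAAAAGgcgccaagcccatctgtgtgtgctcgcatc

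The true paralogues Rpl22l1 (chr3:28805436-28807424, plus strand) and Rpl22 (chr4:152325742-152334071, plus strand) can be told apart by sequence, with 71 mismatches over 299 aligned coding positions (74.6% identity). In the 100-base window with the most differences, shown here, the 28 mismatches are in capitals.
Rpl22l1: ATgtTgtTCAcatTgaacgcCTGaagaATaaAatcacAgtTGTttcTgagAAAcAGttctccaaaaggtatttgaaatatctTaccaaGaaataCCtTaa
Rpl22: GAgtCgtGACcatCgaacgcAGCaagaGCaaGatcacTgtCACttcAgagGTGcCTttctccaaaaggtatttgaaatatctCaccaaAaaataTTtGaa

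Every one of the 77 core genes was detected in both pups at a TPM of 1 or more. Their median was 605 TPM in pup 1 and 487 TPM in pup 3, and the quartiles lay at 410 and 847 TPM in pup 1 and at 323 and 661 TPM in pup 3. Together the 88 members held 5.36% and 4.25% of all TPM in pup 1 and pup 3, and 2.11% (exact binomial 95% interval 2.11 to 2.12) and 1.79% (1.79 to 1.79) of the counts on mouse genes. Relative to their median on the log2(TPM + 1) scale, the core genes had an SD of 1.03 in pup 1 and 1.00 in pup 3 and a median absolute deviation of 0.52 and 0.49. Of the 77, 56 lay within 2-fold of the median in pup 1 and 57 in pup 3, and 49 did so in both. None was more than 2-fold off on opposite sides in the 2 pups, and the deviations of the pups had a Pearson correlation of 0.814 and a Spearman correlation of 0.825 over the 77 genes, which share library and annotation.

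**Figure D1:**
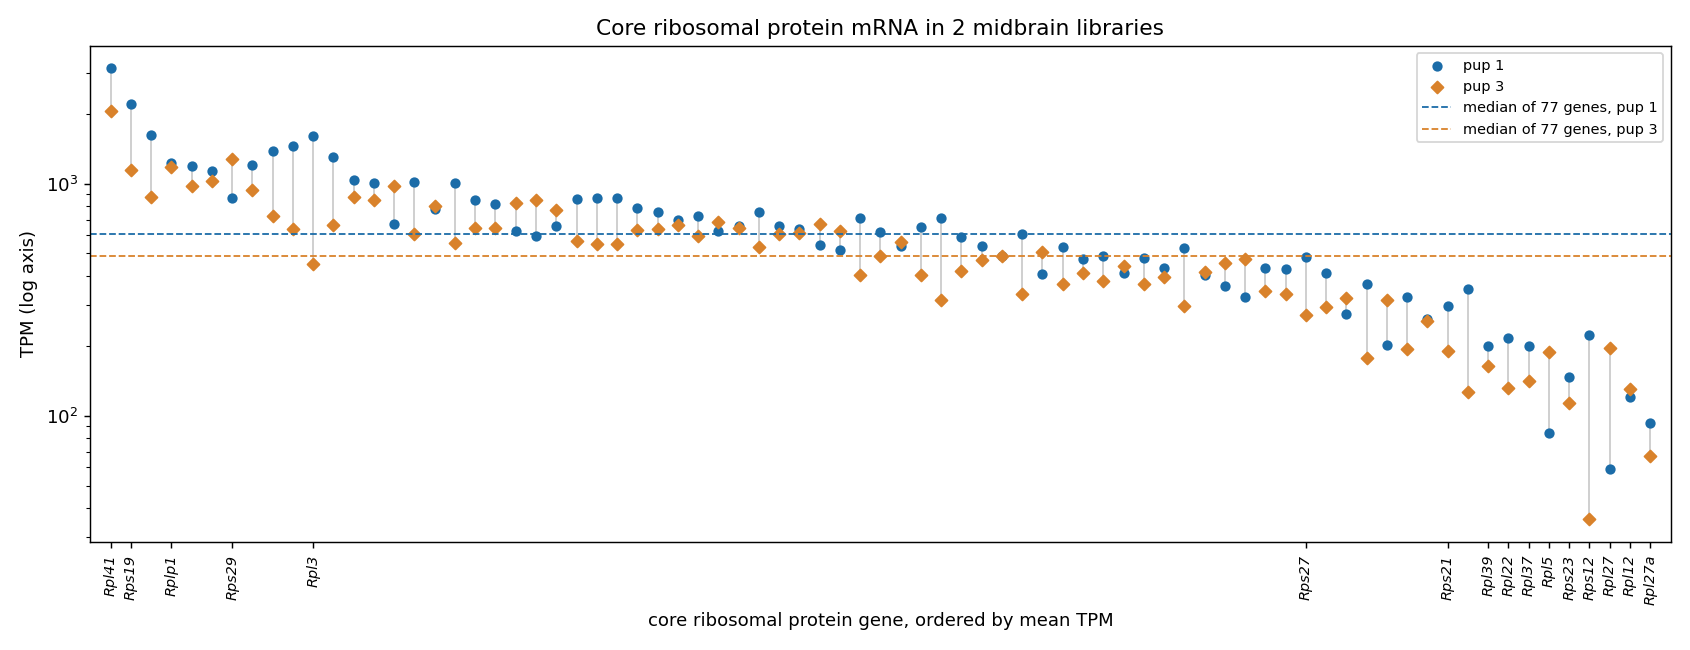
TPM (log axis) of each of the 77 core ribosomal protein genes in pup 1 (circles) and pup 3 (diamonds), ordered by the mean of both, with some genes named; dashed lines are the medians of 605 and 487 TPM. Most genes form a shallow slope around the medians, with Rpl41 apart at the top and a steeper tail of low genes at the right.

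The core genes with the highest mean TPM included Rpl41, Rps19, Rps14, Rplp1, Rpl36, Rpl23a and Rps29. Rpl41, which encodes a very short basic peptide of the large subunit, had 3129 TPM in pup 1 and 2060 TPM in pup 3 and was the only core gene over 4-fold above the median in both. Rps19, mutated in Diamond-Blackfan anaemia, had 2209 and 1147 TPM, and the stalk protein gene Rplp1 had 1228 and 1179 TPM. These 3 were the genes over 2-fold above the median in both pups. Rps14 had 1622 and 878 TPM and Rpl36 had 1190 and 981 TPM in pup 1 and pup 3. Rpl23a, whose protein lies near the exit of the peptide tunnel, had 1134 and 1021 TPM. Of the genes named here, only Rps29 was higher in pup 3 than in pup 1, with 865 TPM in pup 1 and 1277 TPM in pup 3.

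At the other end, 10 core genes lay over 2-fold below the median in both pups, namely the 8 of lowest mean TPM with Rpl39 and Rps21. The lowest by the mean of both pups was Rpl27a, with 93.4 TPM in pup 1 and 67.3 TPM in pup 3, and Rps23, whose protein lies at the decoding centre, had 147 and 113 TPM. These were the core genes over 4-fold below the median in both pups. Rpl12, which forms the base of the stalk, had 121 and 130 TPM, and Rpl37 had 201 and 142 TPM. Rpl5, which carries the 5S ribosomal RNA together with Rpl11 and can bind the p53 regulator Mdm2, had 84.7 TPM in pup 1 and 189 TPM in pup 3. For 3 of these low genes the pups disagreed in size, since Rpl5 and Rpl27 (59.0 and 195 TPM) were lower in pup 1 and Rps12 (223 and 35.9 TPM) was lower in pup 3. Rpl22, an RNA-binding protein of the large subunit needed for normal T-cell development in mice, had 216 and 131 TPM, Rpl39 had 200 and 163 TPM, and Rps21 had 297 and 191 TPM.

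Most of the low core genes had a near-identical row elsewhere in the tables that held many counts. A copy row was another gene whose transcript aligned over at least 80% of its length and 100 bases, with at least 90% identity, to a coding transcript of a core gene. There were 334 such rows for 71 core genes, 324 of them annotated as pseudogenes, and they held 14.02% and 14.67% of the counts of core genes and copies together in pup 1 and pup 3. The share was uneven. It was under 5% in both pups for 43 core genes, over 25% in both for 19, and over 50% in both for 5, which were Rps27, Rps23, Rpl27, Rpl12 and Rpl27a. Of the 10 low genes, 7 had a share over 40% in both pups, and the other 3, Rps21, Rpl39 and Rpl22, had under 5%.

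Rps23-ps1 alone held 957 TPM in pup 1 and 701 TPM in pup 3, with 5083 and 5204 expected counts, against 1577 and 1698 for Rps23. Copies thus held 76.4% and 75.5% of the counts of Rps23 and its copies, and at the length of Rps23 the summed counts equalled 625 and 464 TPM, against core medians with copies of 659 and 577 TPM. Gm7536, identical to the coding sequence of Rpl27a, stood at 535 and 592 TPM. The copies of Rpl27 held 87.6% and 68.5% of the counts, and with them its level was 477 TPM in pup 1 and 619 TPM in pup 3, where the gene alone had been the lowest core gene of pup 1. Gm15500, a transcribed pseudogene with 1018 aligned bases identical to Rpl5, held 6395 and 3355 counts, against 1790 and 4720 for Rpl5. Rpl5 and its copies together came to 388 and 323 TPM, so the pups were closer than for Rpl5 alone. Rpl37rt, 99.7% identical to Rpl37 over 294 bases, had 2566 and 2261 counts, close to the 2512 and 2479 of Rpl37.

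The largest share without a low level was that of Rps27, whose own row had 482 TPM in pup 1 and 272 TPM in pup 3. Rps27rt held 5141 and 4581 counts, against 1225 and 965 for Rps27, and stood at 1164 and 742 TPM. Gm2000, annotated as protein coding and 99.6% identical to Rpl35 over 445 bases, had 4167 and 4375 counts, against 5339 and 5998 for Rpl35. Rpl15-ps3, identical to Rpl15 over 615 bases, had the highest mean of all copy rows, with 7581 and 7328 counts against 11553 and 13191 for Rpl15, and its deposited posterior SD was 14.8% and 14.9% of its posterior mean count. Within an identical stretch the reads of a gene and its copy cannot be told apart, so the counts on either row are the division made by the authors' estimate. The core genes with no matched copy row included Rps9, Rpl8, Rps3, Rpl23 and Rps20.

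With the counts of its copies added to each core gene, at the length of the gene, the spread was smaller. The SD around the median was 0.79 in pup 1 and 0.79 in pup 3, 65 and 62 genes lay within 2-fold of it, and 56 did so in both pups. The 4 genes that then lay over 2-fold below the median in both were Rps21, Rpl39, Rpl22 and Rpl27a. When the TPM of a gene and its copy rows were summed instead, 59 genes lay within 2-fold in both pups, and the genes over 2-fold below in both were Rpl36a, Rps15a, Rps21, Rpl39 and Rpl22. Rpl27a therefore depended on the length used, at 270 and 287 TPM by the first sum and 637 and 660 TPM by the second. Rps27 did too, at 2504 and 1561 TPM by the first sum and 1646 and 1014 TPM by the second. Rps21, Rpl39 and Rpl22 were low in each of these ways. Across the 77 genes, the deviation from the median had a Spearman correlation of -0.454 in pup 1 and -0.416 in pup 3 with the share of counts on copies, and of -0.187 and -0.324 with effective length, given as descriptions. A gene's own count enters both its deviation and its share on copies, so the negative sign of that correlation is partly built in.

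**Figure D2:**
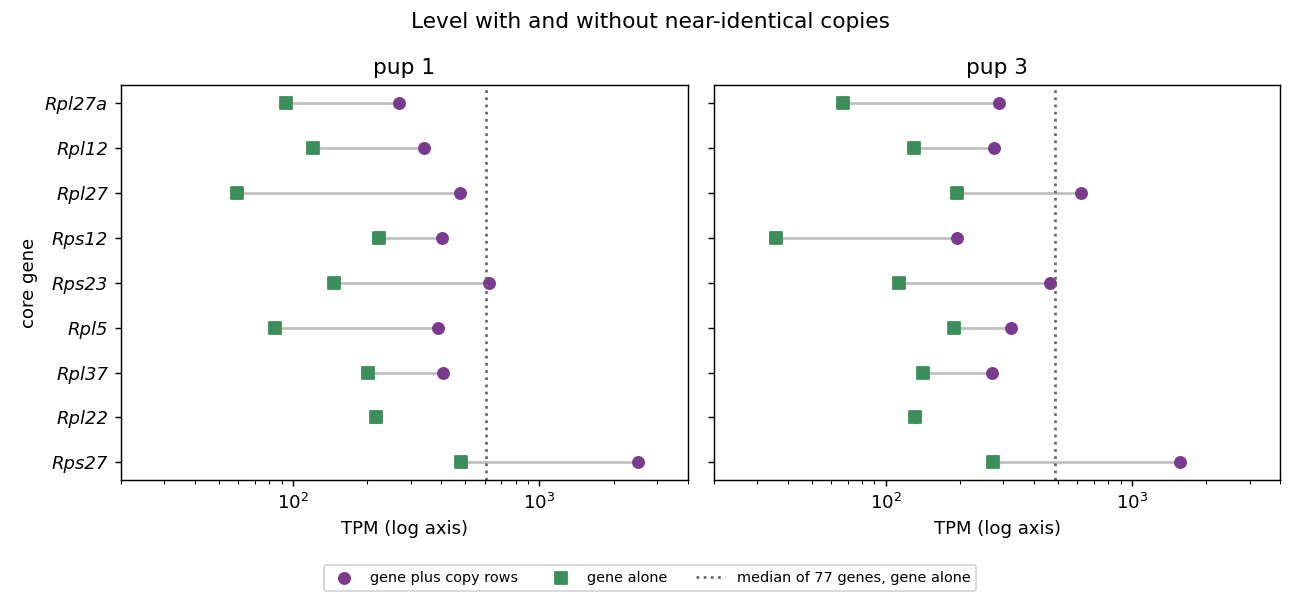
TPM (log axis) of the 8 core genes of lowest mean TPM and of Rps27, in pup 1 (left) and pup 3 (right), as gene plus copy rows at the length of the gene (circles) and as gene alone (squares); the dotted line is the core median of the gene alone. With its copies Rps23 lies at 625 and 464 TPM, close to the lines at 605 and 487 TPM, while Rpl22, with next to no counts on copies, stays at 217 and 131 TPM.

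The deposited posterior SD of a gene's count, which measures how uncertain the division of shared reads was within the authors' estimate, was small for nearly all core genes. Its median was 0.376% of the posterior mean count in pup 1 and 0.342% in pup 3, and it lay under 1% for 55 of the 77 core genes in each pup. It was over 1% in both pups for 22. Genes with more of their counts on copies had a larger posterior SD, with a Spearman correlation of 0.952 in pup 1 and 0.945 in pup 3 over the 77 genes. Both measures are divided by a number that holds the gene's own count, so part of this correlation is built in. The percent of a gene's 100-base stretches found also in another gene comes from sequence alone. With it the posterior SD had a Spearman correlation of 0.562 in pup 1 and 0.547 in pup 3. The highest posterior SDs of core genes were those of Rps12, at 5.59% in pup 1 and 11.8% in pup 3, and of Rps27, at 6.37% and 8.33%. Rpl27 had 4.68% and 2.34%, and Rpl10a had 2.81% and 3.83%. Even so, Rps23, with 425 bases identical in its copy, had 2.99% and 2.84%, and Rps23-ps1 had 0.898% and 0.963%. Core genes with no copy row, such as Rps9, Rps3, Rpl23 and Rps20, had a posterior SD of 0 in both pups.

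Only 3 members were over 10% in both pups, and all were pseudogenes with low counts. Rpl6l had 30.7% in pup 1 and 10.05% in pup 3, on 25.7 and 149 counts. Rps3a3 had 18.6% and 15.4% on 19.74 and 22.02 counts, and Rps3a2 had 13.9% and 15.0% on 83.3 and 66.6 counts. Rps12l1, the copy of Rps12 with the 15-base gap, had 7.99% and 3.07% on 941 and 1271 counts. At a limit of 5%, Rps12 and Rps27 joined the 3 pseudogenes.

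**Figure D3:**
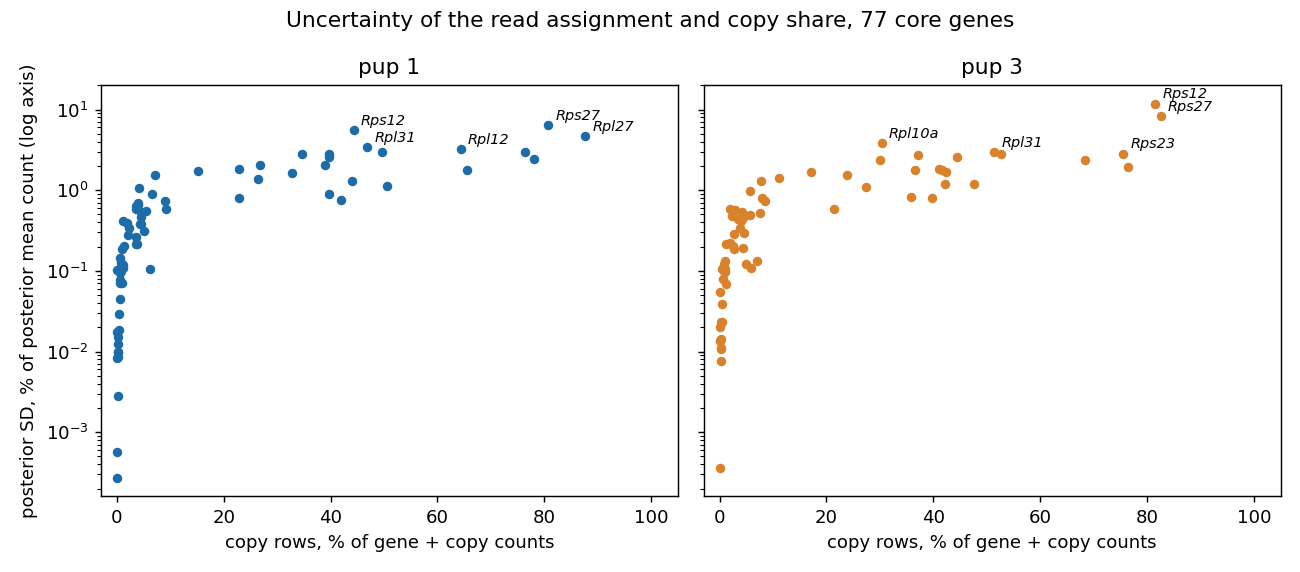
Posterior SD as a percent of the posterior mean count (log axis) against the percent of gene and copy counts that lay on copy rows, for the core genes in pup 1 (left) and pup 3 (right); the 4 core genes of pup 1 and 6 of pup 3 with a posterior SD of 0 cannot be drawn on a log axis. Of the genes with under 5% of their counts on copies, all but Rpl30 in pup 1 (1.07%) stay under 1%, and Rps12 and Rps27 are the highest in either pup.

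Among the paralogues, the widest contrast was between genes that were absent and their working relatives. Rpl3l, the muscle paralogue of Rpl3, a protein near the peptidyl transferase centre, had 0 counts in both pups, against 1600 TPM in pup 1 and 448 TPM in pup 3 for Rpl3. A count of 0 was given a floor of 3 counts in each library, which covers counting error only. Rpl3 was 7853-fold and 3076-fold above that floor in pup 1 and pup 3. The upper ends of the deposited TPM intervals of Rpl3l, 0.510 and 0.367 TPM, were higher than its floor of 0.204 and 0.146 TPM. By those upper ends the folds would be smaller. Rpl10l, which takes the place of the X-linked Rpl10 in male meiosis in mice, also had 0 counts, against 588 and 422 TPM for Rpl10. Rpl10 was 2951-fold and 2963-fold above the floor of Rpl10l, 0.199 and 0.143 TPM. Here the deposited upper ends, 0.192 and 0.138 TPM, lay slightly below the floor. Rpl39l, a testis paralogue of Rpl39, had 0 counts too, against 200 and 163 TPM for Rpl39. Rpl39 was 627-fold and 717-fold above the floor of Rpl39l, 0.318 and 0.228 TPM. The deposited upper ends of Rpl39l, 0.516 and 0.376 TPM, were above that floor and would also give smaller folds. Of 5 skeletal muscle markers, Acta1 was detected at 25.8 and 35.0 TPM and the other 4 were below 1 TPM, and the 3 testis markers had 0 counts in both pups.

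By the TPM of the whole gene, Rpl22l1 was the only paralogue that stood above its core gene in both pups. It had 245 TPM in pup 1, against 216 TPM for Rpl22, and 415 TPM in pup 3, against 131 TPM for Rpl22. The deposited 95% intervals were 227 to 252 TPM for Rpl22l1 and 200 to 221 TPM for Rpl22 in pup 1, and 395 to 426 TPM and 122 to 136 TPM in pup 3, so they did not overlap in either. The log2 ratio of Rpl22l1 over Rpl22 was 0.18 in pup 1 and 1.65 in pup 3, and Rpl22l1 made up 53.1% and 76.0% of the pair. The direction in pup 1 rested on length: Rpl22l1 had 1942 counts against 4747 for Rpl22 in pup 1, and 3891 against 3063 in pup 3, and most counts of Rpl22 lay on a transcript of 2051 bases. With no division by length the mean log2 ratio was -0.47, the opposite sign. The order in pup 1 also rested on Rpl22l1-209, annotated as a processed transcript, with 24.1% of the TPM of Rpl22l1 in pup 1 and 35.0% in pup 3. Protein-coding forms alone had 36.1 and 136 TPM for Rpl22l1 in pup 1, below the 69.7, 103 and 28.9 TPM of Rpl22 together. In pup 3 they had 19.9 and 220 TPM, above the 77.1, 54.0 and 0.08 TPM of Rpl22 together.

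The other paralogues were below their core gene in both pups with intervals that did not overlap. Rpl7l1 had 76.9 TPM in pup 1 and 90.2 TPM in pup 3, against 785 and 630 TPM for Rpl7, a log2 ratio of -3.34 and -2.79. Rps27l, a paralogue of Rps27 known as a target of p53, had 64.3 and 178 TPM, against 482 and 272 TPM for Rps27, a log2 ratio of -2.89 and -0.61. These levels of Rps27 leave out Rps27rt, with which the gap would be wider. Rps4l, annotated as a transcribed processed pseudogene, had 175 and 277 TPM, against 605 and 334 TPM for the X-linked Rps4x, a log2 ratio of -1.79 and -0.27. Rpl36al, whose symbol falls outside the rule, had 154 TPM against 371 TPM for Rpl36a in pup 1 and 383 TPM against 177 TPM in pup 3, so the order of the pair differed between the pups. In each pair with a detected paralogue, Rpl22l1, Rpl7l1, Rps27l, Rps4l and Rpl36al, the paralogue took a larger share of its pair in pup 3 than in pup 1, and with 1 library from each pup this has no replicate check.

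**Figure D4:**
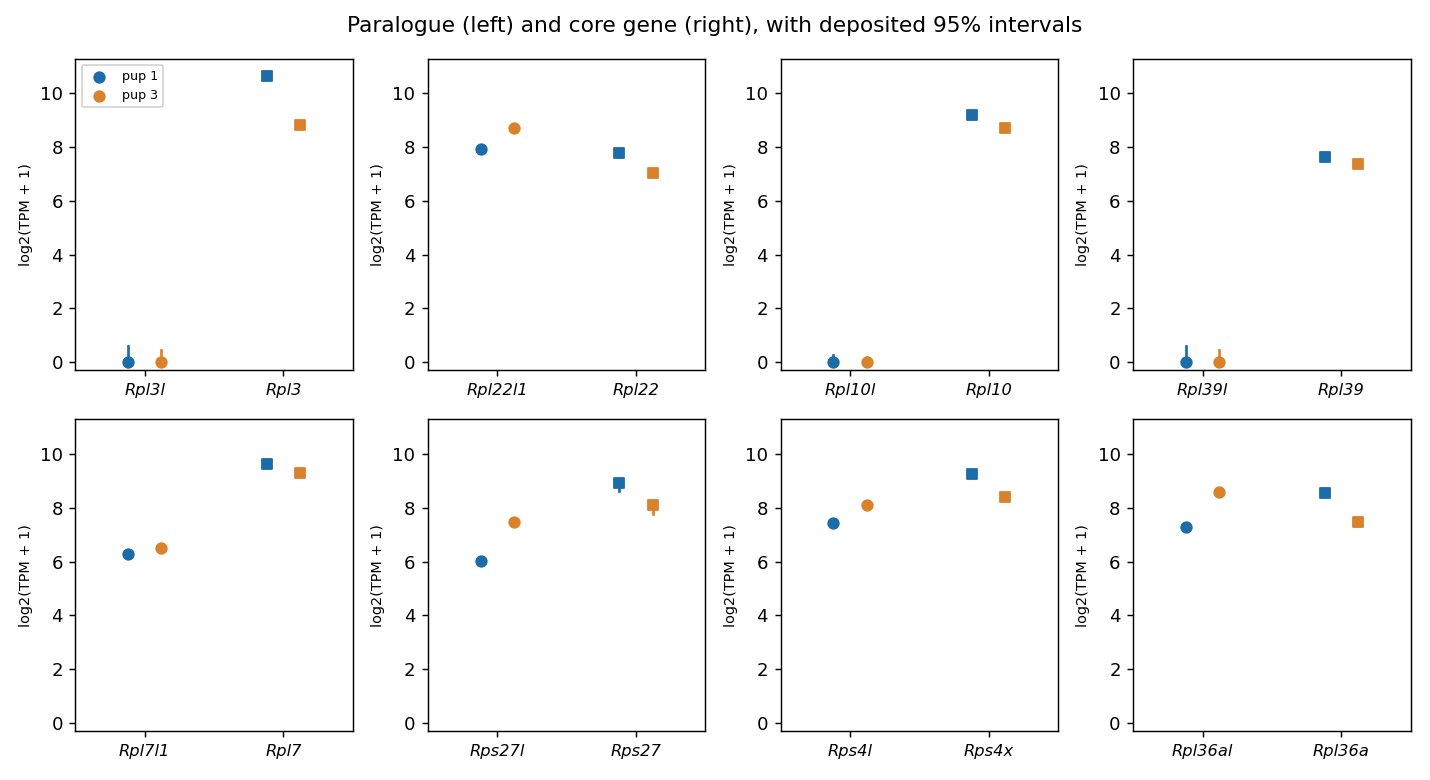
Level as log2(TPM + 1) of each paralogue (left, circles) and its core gene (right, squares) in pup 1 and pup 3, with the deposited 95% interval of TPM as a line, which can lie below the TPM because it surrounds the posterior mean. Rpl3l, Rpl10l and Rpl39l sit at 0 in both pups, and Rpl22l1 is the only gene of the 7 pairs within the rule that is above its core gene in both.

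The remaining members were copies of core genes. Rps12l1 had 192 TPM in pup 1 and 186 TPM in pup 3, above the 35.9 TPM of Rps12 in pup 3 and below its 223 TPM in pup 1. Rps3a2 had 7.38 and 4.22 TPM, Rpl6l had 1.99 and 8.30 TPM, and Rps3a3 had 1.74 and 1.39 TPM, so these 3 stayed far under the core range in both pups.

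The 46 large subunit genes had a median of 563 TPM in pup 1 and 460 TPM in pup 3, and the 31 small subunit genes had 620 and 557 TPM, ranges that overlapped widely. Core genes lay on 19 chromosomes. The 4 on the X chromosome were all detected: Rps4x had 605 and 334 TPM, Rpl10 had 588 and 422 TPM, Rpl36a had 371 and 177 TPM, and Rpl39 had 200 and 163 TPM. All 4 were higher in pup 1, as were 56 of the 77 core genes. Core proteins whose symbols the rule does not take lay in the same range. Fau, a fusion of a ubiquitin-like protein with a small subunit protein, had 819 and 317 TPM in pup 1 and pup 3, and Rack1, a scaffold on the small subunit, had 364 and 317 TPM.

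The spread of the core genes, each taken alone without copy rows, was set beside that of 3 other complexes of about equal subunits. Within 2-fold of their own median lay 72.7% and 74.0% of the cytosolic core genes in pup 1 and pup 3, against 61.0% and 62.3% of 77 mitochondrial ribosomal protein genes, 83.9% and 77.4% of 31 proteasome genes, while 8 and 6 of the 8 genes of the chaperonin TRiC did. The cytosolic core genes differed from these complexes in level, as the medians were 64.0 and 77.4 TPM for the mitochondrial ribosome, 245 and 284 TPM for the proteasome and 371 and 291 TPM for TRiC. Between the pups, the log2 levels correlated at 0.814 (Pearson) over the cytosolic core genes, against 0.385 over the mitochondrial ribosomal genes, 0.383 over the proteasome genes and 0.407 over the TRiC genes. The place of the cytosolic core below the proteasome is that of the genes alone. With copy counts added, 65 and 62 of the 77 cytosolic core genes lay within 2-fold in pup 1 and pup 3. Copies were not sought for the other complexes. The complexes differ in mean level and thus in counting depth, and the part of depth in these values was not tested.

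**Figure D5:**
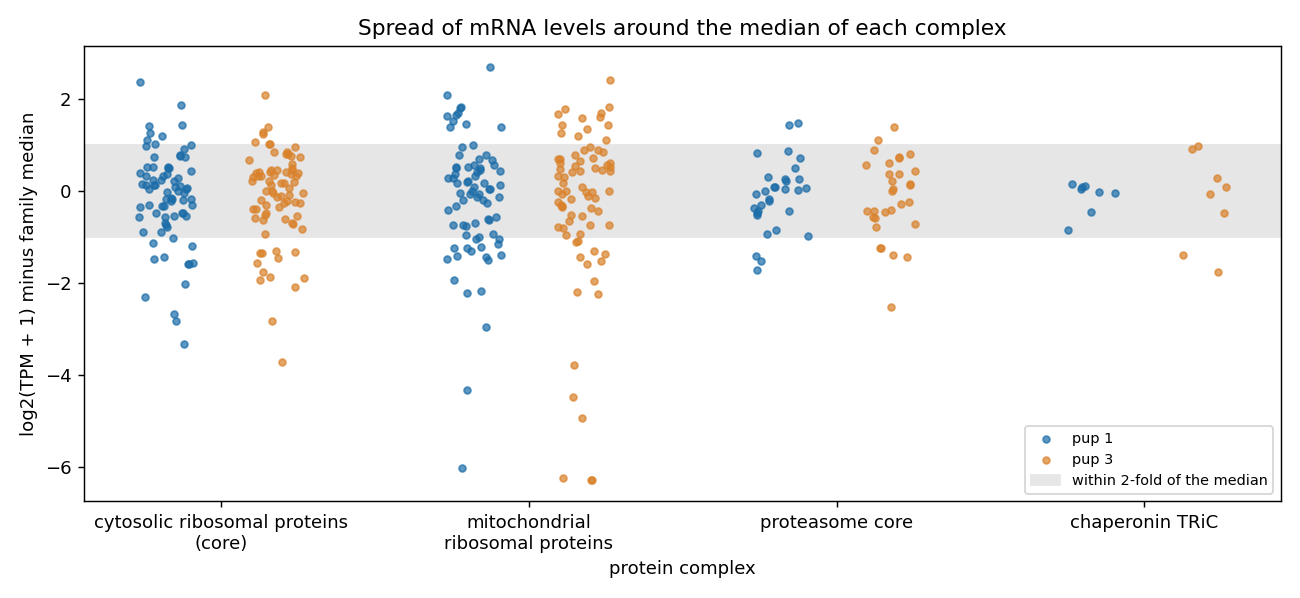
Deviation of each gene's log2(TPM + 1) from the median of its complex, in pup 1 (left of each pair) and pup 3 (right), for 77 cytosolic core genes, 77 mitochondrial ribosomal protein genes, 31 proteasome genes and 8 TRiC genes; the grey band is within 2-fold. Genes are drawn alone, without copy rows. The cytosolic core holds 56 and 57 genes in the band and few far below it, and the mitochondrial ribosome has a longer lower tail.

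Between the pups, the core genes stood slightly higher in pup 1. The median log2 ratio of pup 1 over pup 3 was 0.32 by TPM, against -0.10 over the 7389 genes detected in both pups, and 0.18 against -0.22 by counts scaled to total gene counts. The offset to all genes was thus 0.42 by TPM and 0.40 by counts. Relative to the median of all genes, 61 of the 77 core genes were higher in pup 1. Large and small subunits were alike in this, with a median log2 ratio of 0.28 for the large and 0.36 for the small subunit genes. Sizes were modest, as 69 of the 77 lay within 2-fold by TPM, and the median absolute log2 ratio was 0.390, against 0.587 over the 1667 genes whose mean level reached 100 TPM. In RNA of a whole tissue, fewer cells of a type and less RNA per cell cannot be told apart.

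A gene was listed as over 4-fold apart when the exact (Clopper-Pearson) 95% interval of its scaled count ratio lay wholly beyond 4-fold, which covers counting error only. One of the 88 members met this, Rps12, while 40.9% of the 14629 genes with a count did, 23.1% higher in pup 1 and 17.8% higher in pup 3. Among those 1667 genes of at least 100 TPM the share was 4.02%, 1.92% higher in pup 1 and 2.1% higher in pup 3, so 1 of 88 lay near or below the share at such levels. Rps12 had 1371 counts in pup 1 and 308 in pup 3, a ratio of 5.54 (95% interval 4.89 to 6.29). Its copy Rps12l1 had 941 counts in pup 1 and 1271 in pup 3, a scaled ratio of 0.92 (0.85 to 1.00), and for Rps12 with all its copies the ratio was 1.84 (1.73 to 1.96). With copies added, no core gene was over 4-fold apart.

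At a limit of 2-fold, 7 members were listed, against 55.1% of all genes with a count (29.2% higher in pup 1, 26.0% higher in pup 3) and 24.2% of the 1667 genes of at least 100 TPM (7.98% higher in pup 1, 16.2% higher in pup 3). Higher in pup 1 were Rpl3, with 31439 counts in pup 1 and 11839 in pup 3 (ratio 3.31), Rpl10a, a large subunit protein, with 4301 and 2109 counts (ratio 2.54), and Rps12. Higher in pup 3 were Rpl27 (ratio 0.28), Rpl5 (0.47), Rps27l (0.32) and Rpl6l (0.22). With copies added, Rpl3 and Rpl10a were the core genes that met the limit, at ratios of 3.28 and 2.93, while Rpl27 and Rpl5 did not.

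Transcript rows gave a view of which forms were measured. By the annotation of GENCODE M21, protein-coding transcripts held 91.1% and 90.9% of the TPM of core genes in pup 1 and pup 3, processed transcripts 3.63% and 3.95%, retained-intron transcripts 2.86% and 3.22%, and nonsense-mediated decay transcripts 0.309% and 0.374%. Of the 57 core genes with several transcripts, 53 had the same leading transcript by TPM in both pups and 4 did not, Rpl21, Rpl38, Rpl22 and Rpl5. Rps24, whose alternative last exons differ between tissues, had 96.86% and 99.98% of its TPM on Rps24-201. Rpl22 led with Rpl22-204 in pup 1 (47.8%) and with the shorter Rpl22-201 in pup 3 (58.7%), while by counts Rpl22-204 led in both pups. Rpl22-204 and Rpl22-208 have 2051 and 2048 bases, and the posterior SD of the count of Rpl22-204 was 987 in pup 1 and 545 in pup 3, on 3293 and 2399 counts. The gene's own posterior SD was 0.00843% and 0.0134%, so the doubt lay between transcripts of the gene and not between genes.

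In 71 core genes the leading transcript by TPM was protein coding in both pups. Rps20 led with a form annotated as retained intron, at 92.9% in pup 1 and 94.7% in pup 3, and Rpl35 with a processed transcript, at 86.6% and 85.6%. Rpl12 led with a form annotated for nonsense-mediated decay, at 59.9% and 82.4%, and Rpl23 with a processed transcript, at 76.3% and 49.7%. In pup 3 the longer protein-coding Rpl23-201 led Rpl23 by counts, with 2590 against 2118 for the processed transcript. Rpl5 led with retained-intron forms that differed between the pups, Rpl5-205 at 52.9% of TPM in pup 1 and Rpl5-204 at 39.1% in pup 3. By counts, not divided by length, the longer protein-coding Rpl5-201 led in both pups, with 1267 of 1790 counts in pup 1 and 1934 of 4720 in pup 3. Rpl13a led with a transcript that M21 does not hold, at 34.3% and 40.8%. These classes come from the annotation, and whether the RNAs were translated was not tested.

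Genes that act on ribosomal protein mRNAs and on ribosome assembly were read against the 40.9% of all genes with a count that were over 4-fold apart. Of 12 genes for control of pyrimidine-tract mRNAs, 8 were detected in both pups, 3 in pup 1 alone and 1 in pup 3 alone, while the 4-fold limit was passed by 4 towards pup 1 and by 2 towards pup 3. The most abundant were Cnbp, a nucleic acid binding protein, at 492 and 466 TPM in pup 1 and pup 3, Rheb, the activator of mTOR complex 1, at 43.2 and 172 TPM, and Tia1, an RNA-binding protein, at 107 and 35.4 TPM. Of 32 assembly factors, 25 were detected in both, and the limit was passed by 3 towards pup 1 and by 5 towards pup 3. Nucleophosmin (Npm1) had 561 and 266 TPM, Nop56, of the box C/D particles that methylate ribosomal RNA, had 577 and 113 TPM, and Nop10, of the pseudouridylation particles, had 141 and 219 TPM. Of 11 genes of RNA polymerase I transcription, 6 were detected in both and Taf1c had 0 counts in both, and the limit was passed by 2 towards pup 1 and by 1 towards pup 3. The highest were Polr1c at 122 and 102 TPM, Rrn3, which recruits the polymerase, at 84.6 and 42.0 TPM, and Taf1b at 79.2 and 35.7 TPM.

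The start sites of the core genes were searched for the pyrimidine tract. In RefSeq on GRCm38.p6, 57 of the 77 core genes had an entry, and 32 of them (56.1%) held an unbroken run of at least 8 bases that are C or T on the sense strand between 20 bases before and 30 after an annotated start, against 5811 of 27025 genes (21.5%). The median longest run was 9 bases for core genes and 5 for all genes. A match is a description of letters only, and only the sense strand was read, as the tract is part of the mRNA. Bases before the annotated start are not in the mRNA by that annotation. A run that lies there, as most of the printed run of Rpl34 does, is not shown to be a tract at the 5′ end of the mRNA. The windows below, 30 bases each from 10 bases before the start, are from 4 core genes with long runs. Capitals mark the part of the run that lies inside the window. For Rpl7a and Rpl34 the run begins before the first base printed.
Rpl27a (chr7:109519185-109519214, plus strand): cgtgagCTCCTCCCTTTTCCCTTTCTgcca
Rpl35 (chr2:39005112-39005141, minus strand): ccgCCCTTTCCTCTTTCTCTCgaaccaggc
Rpl7a (chr2:26910797-26910826, plus strand): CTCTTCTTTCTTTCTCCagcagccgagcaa
Rpl34 (chr3:130730318-130730347, minus strand): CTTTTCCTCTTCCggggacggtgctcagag
Rpl7a had 414 TPM in pup 1 and 440 TPM in pup 3, Rpl34 had 712 and 405 TPM, and Rpl35 had 728 and 596 TPM, all within 2-fold of the core medians, while Rpl27a had the lowest mean TPM of the core genes by its own row.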

How the data were processed

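A mirVana kit was used for RNA and 13 pg went into amplification, per the labels. Per the file headers, the authors used mm10 with annotation M4. The quantification program, its version and the use of strand are not given in the sources at hand, so antisense and overlapping genes may share reads. The deposited expected counts divide reads that match several genes and were rounded for intervals. The deposited TPM values are counts per effective length, scaled over all rows, spike-ins and tRNA included. The deposited posterior SD and TPM interval bounds were used as scores, and the deposited percent of a gene's TPM on each transcript for isoforms. Of the counts, 2.05% in pup 1 and 2.21% in pup 3 lay on rows of no mouse gene and were left out of scaling. Log2 ratios used TPM + 1.

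The members, pairs and lists were chosen with earlier results of these data known. Genes named are the 8 highest and 8 lowest core genes by mean TPM, those over 4-fold from the median in both pups, members over 4-fold apart, all members outside the core, the paralogue pairs, the 8 members of largest relative posterior SD, X-linked core genes, genes whose leading transcript differed, Rps24, and the 3 most abundant genes of each list with any at 0 in both pups. Some genes that this rule names are not reported here. Copy rows, the 7 members at the 2-fold limit, the promoter windows and the leading non-coding transcripts were chosen after values were seen. Copies were found with blastn 2.17.0 and aligned with biopython 1.88. Scaling factors came from edgeR 4.0.16 (TMM) and DESeq2 1.42.0 (size factors) in R 4.3.3, other steps from Python 3.11.15, numpy 2.4.6, scipy 1.17.1 and pandas 2.3.3. On simulated counts of 43346 genes for pup 1 over pup 3, the 4-fold rule listed 100% of 100 genes changed 8-fold and 0% of 100 changed 2-fold. Those counts were Poisson draws with no amplification noise and no doubt in read assignment, so they check the rule under counting error only. Because amplified reads are not independent molecules, every interval and floor is for counting error alone. The replicates are the 2 labelled pups. The protein sequences of the members were not used here.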

Additional observations from a re-analysis of the deposited data

How the results depend on the processing

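Members detected in both pups numbered 85 and 82 to 85 under other limits. The mean SD of the core genes around their median was 1.02, 1.00 to 1.03 in single pups and 1.10 with no division by length. It was 0.975 without Rps12, the 1 core gene whose posterior SD passed 10%, which it did in pup 3 only. With copy counts added the mean SD was 0.789, and with the TPM of copies summed it was 0.782. The count within 2-fold in both pups was 49 and 49 to 59 elsewhere. Under TMM and DESeq2 scaling Rps12 was still the 1 member over 4-fold apart; a 2-fold limit gave 7 and adding copies gave 0. The core median log2 ratio of 0.32 ranged from 0.18 to 0.38. The log2 ratio of Rpl22l1 over Rpl22 was 0.92 on average (0.18 and 1.65 in single pups) and reversed to -0.47 with no division by length, and that of Rpl7l1 over Rpl7 was -3.06 and came to -1.29. Members over 10% posterior SD numbered 3, against 5 at a limit of 5% and 0 at 20%. Chosen after seeing the data were the 2-fold limit, the total-count scaling, the paralogue ratios without length division, the TPM sums, and the copy counts in the SD, the median ratio and the 4-fold count. For Rpl3l, Rpl10l and Rpl39l, with 0 counts, another pseudocount or the posterior mean gives no bound and was not run. No paired analysis was possible because both pups belong to 1 group. Depth was ample, with at least 308 counts on each core gene, but 2 libraries from so little RNA limit any statement about midbrain beyond them.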
